A study of Homo sapiens with 6 samples.

Results

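The genes described here encode 10 factors that cut and polyadenylate pre-mRNA: NUDT21, CPSF6 and CPSF7 of cleavage factor I (CFIm), CPSF1, CPSF2 and CPSF3 of the cleavage and polyadenylation specificity factor (CPSF), CSTF1, CSTF2 and CSTF3 of the cleavage stimulation factor (CstF), and the nuclear poly(A) binding protein PABPN1. They were taken by gene symbol from the annotation of the Illumina HumanHT-12 v4 BeadChip, as 18 of 47323 probes and 10 of 20046 named genes, and each probe was followed on its own. The group was picked because probes of NUDT21, CPSF6 and CPSF2 were low on 1 array, that of parental cells treated with PNAs-A15. Differences that involve that array are therefore a description and carry no test.

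The end of nearly every human mRNA is made by cutting the transcript a short distance after a poly(A) signal and adding a poly(A) tail. CPSF reads the signal and makes the cut, CstF binds the U- or GU-rich stretch behind the cut, and CFIm binds UGUA elements ahead of it. Many genes have several such sites, and the levels of NUDT21 and CPSF6, of CSTF2 and of PABPN1 are known to shift the choice between them, so that mRNAs with longer or shorter 3′ untranslated regions are made.

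The cells were NCI-H460, an established line of human large cell lung carcinoma, kept as the parental wild type or as a cancer stem cell-rich (CSC-rich) population that had been enriched by growth as spheroids. Each population gave 3 arrays: untreated, treated with a scramble control, and treated with PNAs-A15. Treatment lasted 6 h. Parental cultures alone received 10% fetal bovine serum, so the effects of medium and of population cannot be told apart. The labels do not say what PNAs-A15 or the scramble is made of, and in CSC-rich cells the treated array carries a shortened name, taken for the same agent. There were 6 groups with 1 array in each, and no replicate of any group, so the number of arrays limits the precision of every value below.

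Before any result, 2 arrays need mention. On the parental PNAs-A15 array 36.5% of all probes were detected (detection p under 0.05 against the negative controls), on the CSC-rich scramble array 38.5%, and the highest share on any array was 42.8%. Over 21526 probes detected on at least 2 arrays, Pearson r was 0.846 to 0.870 between the parental PNAs-A15 array and the rest, and 0.914 to 0.992 among the other 5 arrays. Of 5 markers of epithelial carcinoma, KRT8 and KRT19 were detected on all 6 arrays, whereas KRT18, CDH1 and EPCAM were detected on none. Their summed signal was 14740 to 27253 on parental and 5389 to 14486 on CSC-rich arrays. Of 5 immune markers, CD14 and CD68 were detected on all 6 arrays, PTPRC and CD3E on none, and LYZ on the 2 arrays named above alone. The summed signal of these 5 was 3239.8 and 3507.9 in the parental controls, 6410.7 with PNAs-A15, and 4852 to 6927 in CSC-rich cells. The part of these in the results was not tested. Of 7 stem cell markers, CD44, SOX2, ABCG2 and ALDH1A1 were detected on all 6 arrays. The stem cell markers PROM1, NANOG and POU5F1 were detected on none, in CSC-rich as in parental cells.

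Promoters of the factors that the results turn on are shown because members differed in how they moved; each is the 250 bases ahead of the gene's start in RefSeq (GRCh38.p14), read 5′ to 3′ on the gene's strand. Capitals mark an ETS core, here only the run CCGGAA or its reverse complement TTCCGG, or a CCAAT box (CCAAT or ATTGG). Looser ETS-like runs, such as ACGGAA in the CSTF2 window, were neither marked nor counted.
NUDT21, chr16:56451333-56451582, minus strand: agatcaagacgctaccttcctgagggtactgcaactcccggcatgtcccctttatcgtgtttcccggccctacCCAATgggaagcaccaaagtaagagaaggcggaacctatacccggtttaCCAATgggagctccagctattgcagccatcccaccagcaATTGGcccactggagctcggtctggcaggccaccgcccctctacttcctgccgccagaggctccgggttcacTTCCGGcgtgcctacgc
CPSF6, chr12:69239319-69239568, plus strand: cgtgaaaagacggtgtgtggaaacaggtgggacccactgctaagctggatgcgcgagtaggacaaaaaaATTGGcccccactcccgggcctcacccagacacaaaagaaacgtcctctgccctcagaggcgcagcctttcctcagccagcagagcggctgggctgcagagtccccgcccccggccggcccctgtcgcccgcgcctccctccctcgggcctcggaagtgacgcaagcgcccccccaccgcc
CSTF2, chrX:100820141-100820390, plus strand: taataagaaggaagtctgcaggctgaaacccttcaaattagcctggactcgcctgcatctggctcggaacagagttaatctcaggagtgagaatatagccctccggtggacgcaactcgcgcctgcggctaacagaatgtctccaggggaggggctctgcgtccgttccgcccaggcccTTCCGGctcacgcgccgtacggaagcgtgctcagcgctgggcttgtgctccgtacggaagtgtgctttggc
The NUDT21 window held 3 CCAAT boxes and 1 ETS core, the CPSF6 window 1 CCAAT box, and the CSTF2 window 1 ETS core. Of the 9 members with an entry in the RefSeq promoter table, 5 had an ETS core and 6 a CCAAT box in at least 1 window, counted on both strands and over 11 windows, since some genes have more than 1 start. None of the 9 had a TATA box (TATAAA or TTTATA). Over all 35116 promoter windows of that length, the shares were 14.5% for the ETS core, 32.0% for the CCAAT box and 10.7% for the TATA box. These shares are per window, whereas the members were counted per gene, so the figures are not on the same footing. A match is a run of letters only and was not tied to any factor.

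Not every member could be read on these arrays. Of the 18 probes, 8 were detected on all 6 arrays and 13 on at least 2, which left 8 of the 10 genes. The 4 probes of CSTF1, a subunit of CstF with WD repeats, were detected on no array. The single probe of CPSF7, a CFIm subunit that can take the place of CPSF6, was detected on the parental scramble array alone, with a signal of 175. By array, the number of detected member probes was 13 in untreated parental cells, 14 with scramble and 8 with PNAs-A15, and 13, 13 and 12 in the same order in CSC-rich cells. Of all probes, 42.5%, 42.8% and 36.5% were detected in parental and 42.7%, 38.5% and 41.2% in CSC-rich cells. Since members were picked for low values on the parental PNAs-A15 array, nothing is read from the 8 there.

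**Figure D1:**
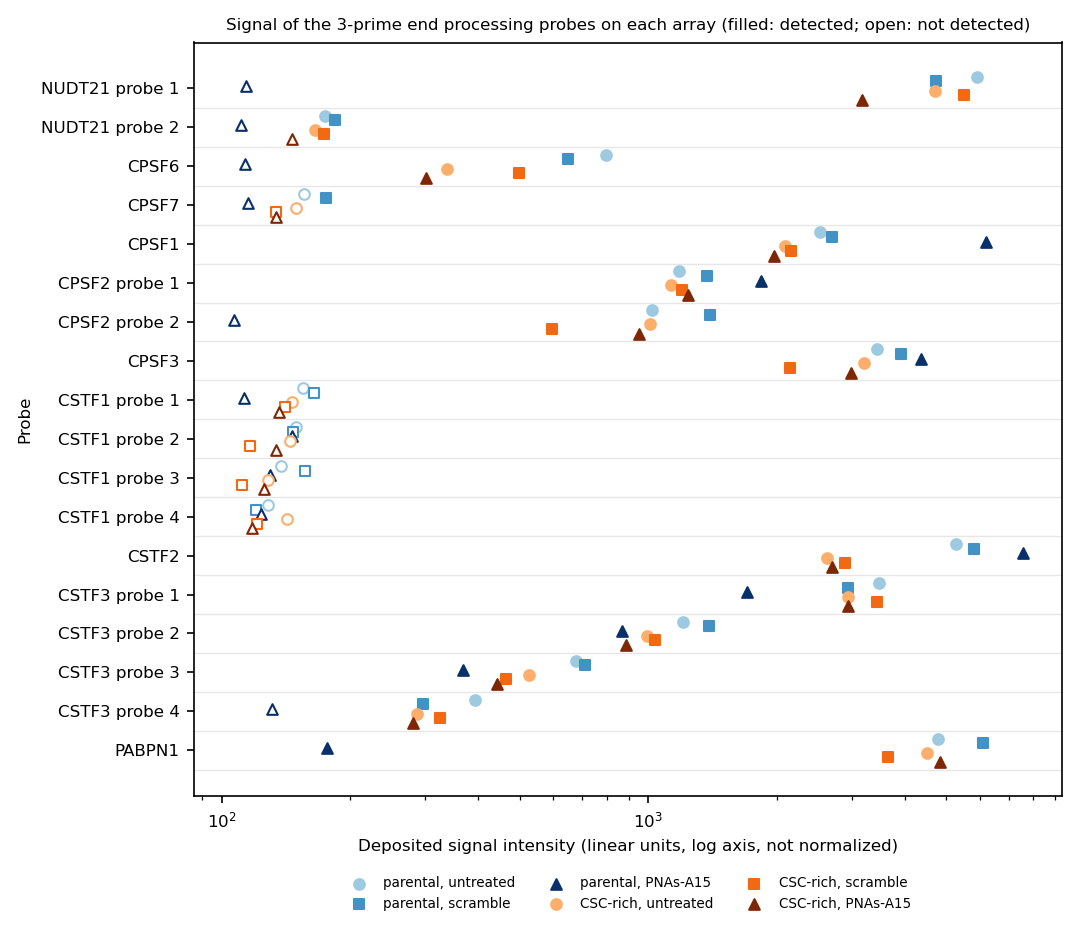
Deposited linear signal (log axis) of all 18 member probes, 1 point per array, with filled points where the probe was detected and open points where it was not. NUDT21 probe 1 reads 4695 to 5899 on 4 of the arrays, 3169.9 with PNAs-A15 in CSC-rich cells and 114 with PNAs-A15 in parental cells.

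CFIm is a complex of NUDT21, the subunit that binds UGUA, with CPSF6 or CPSF7. NUDT21 probe 1 (ILMN_1798886) gave deposited signals of 5899 untreated, 4719.9 with scramble and 114 with PNAs-A15 in parental cells, and of 4695, 5501 and 3169.9 in the same order in CSC-rich cells. The parental PNAs-A15 array was the only one on which it was not detected, with a detection p of 0.49, and the other 5 arrays lay far above it. After background correction and quantile normalization, the probe was at least 60.3-fold lower with PNAs-A15 than with scramble in parental cells and at least 80.3-fold lower than without treatment. Each bound sets the bright array against the dimmest probe still detected on the dim array. Such bounds, here and below, hold for this processing alone. The log2 difference of NUDT21 probe 1 from scramble was -6.93 in it. It was -5.91 with an offset of 50 in place of 16 and -5.37 on the unnormalized signals. NUDT21 probe 2 (ILMN_2133146) read close to background throughout, at 175, 185 and 111 in parental cells and 166, 174 and 147 in CSC-rich cells. It was not detected on either PNAs-A15 array, and since its signals were near the detection limit on the 4 control arrays, it adds little on how far NUDT21 differed. These are bulk RNA values, in which fewer cells with a transcript and less of it per cell cannot be told apart.

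In CSC-rich cells, whose arrays had no part in the choice of genes, NUDT21 probe 1 was again lower with PNAs-A15. The log2 difference was -0.93 against scramble, and 4.01% of all probes lay as low or lower. Against the untreated array it was -0.56, with 3.89% of probes as low. The control arrays differed from each other by 0.37 in CSC-rich and by -0.41 in parental cells, so the difference from untreated cells was only a little wider than the gap between controls. A test was added after the data were seen: limma's additive model of population and treatment on the 5 arrays without the parental PNAs-A15 array, where the lone PNAs-A15 array is assumed to vary like the others. It put NUDT21 probe 1 at -0.76 ± 0.45 (SE) against untreated cells (95% interval -1.73 to 0.21) and at -0.74 ± 0.45 against scramble (-1.71 to 0.23), with an adjusted p of 0.977 or more in both.

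CPSF6, the RNA-binding partner of NUDT21 in CFIm, followed it in parental cells. Its probe (ILMN_1795454) gave signals of 795, 649 and 114 in parental cells, again in the order untreated, scramble, PNAs-A15, and 337, 499 and 302 in CSC-rich cells. It was not detected on the parental PNAs-A15 array and detected on the other 5. The difference there was at least 6.27-fold against scramble and at least 8.83-fold against untreated cells. Its log2 difference from scramble was -3.67 after quantile normalization and -2.51 on the unnormalized signals. In CSC-rich cells CPSF6 was 2.65-fold lower with PNAs-A15 than with scramble (log2 -1.41, with 0.353% of probes as low) but differed by -0.23 from untreated cells. The CSC-rich scramble array was the high one: CPSF6 stood 2.26-fold higher there than in untreated cells, a log2 difference of 1.18 that was 0.89 with median scaling and 0.56 on the unnormalized signals.

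CPSF holds the endonuclease and the subunits that carry it. CPSF3, the endonuclease itself, gave signals of 3439, 3910.3 and 4368 in parental cells and 3214, 2154 and 2991 in CSC-rich cells, in the order untreated, scramble, PNAs-A15. It was detected everywhere, and with PNAs-A15 it was 0.67 higher on the log2 scale than with scramble in parental (0.16 unnormalized) and 0.40 higher in CSC-rich cells. CPSF1, the large scaffold subunit, gave 2525, 2702 and 6209 in parental and 2099, 2159.7 and 1976 in CSC-rich cells. Here the parental PNAs-A15 array was the highest of the 6, 3.35-fold above scramble and 3.37-fold above untreated cells, and among the CSC-rich arrays the widest log2 difference was -0.26. The parental difference from scramble was 1.75 after quantile normalization, 1.51 with median scaling and 1.20 on the unnormalized signals.

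CPSF2, a relative of the endonuclease without cleavage activity of its own, was read by a pair of probes that went opposite ways on the parental PNAs-A15 array. Probe 1 (ILMN_2144116) gave 1185, 1373 and 1844 in parental cells and 1133, 1203 and 1243 in CSC-rich cells. Probe 2 (ILMN_1673185) gave 1019, 1393 and 107 in parental cells, the last not detected, and 1012, 595 and 954 in CSC-rich cells. Against scramble, probe 1 was 2.37-fold higher (log2 1.24, falling to 0.74 with median scaling and 0.43 unnormalized) and probe 2 at least 15.5-fold lower. The log2 difference of probe 2 was -5.09 after quantile normalization and -3.71 unnormalized. A direction for CPSF2 as a gene therefore cannot be given on this array. Of 774 genes with several probes at signals of 1000 or more in both parental controls, 40 (5.17%) had, like CPSF2, a probe that was not detected on that array beside one that was. In CSC-rich cells, where both probes were detected, they were 0.67 apart on the log2 scale with PNAs-A15 against scramble, and the median over the same genes was 0.36. The annotation used here gives no position of a probe within the transcript, so which end of the mRNA each reads was not tested.

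CSTF2, the CstF subunit that binds RNA behind the cut, was detected on every array with signals of 5267, 5821 and 7548 in parental and 2624, 2898 and 2698 in CSC-rich cells. All 3 CSC-rich arrays lay below all 3 parental ones. With PNAs-A15 it was 0.81 higher than scramble in parental (0.37 unnormalized) and 0.22 lower (log2 -0.22) in CSC-rich cells.

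CSTF3, the CstF subunit that bridges CSTF1 and CSTF2, is known for shorter transcripts that end at a poly(A) site within an intron, and its 4 probes are annotated to 3 RefSeq transcripts. Probe 1 (ILMN_1808779, NM_001326) gave 3470.4, 2947 and 1706 in parental and 2941, 3436 and 2940.4 in CSC-rich cells. Probe 2 (ILMN_2397880, NM_001033505) gave 1209.6, 1390.3 and 868 in parental and 994, 1039 and 888 in CSC-rich cells. Probe 3 (ILMN_1762002, also NM_001033505) gave 678, 709.6 and 368 in parental and 526, 464 and 443 in CSC-rich cells. In each of these 3 probes the raw signal was lowest on the parental PNAs-A15 array, yet the log2 difference from scramble depended on the scaling: it was -0.09, 0.19 and 0.02 after quantile normalization, -0.55, -0.46 and -0.89 with median scaling, and -0.79, -0.68 and -0.95 unnormalized. Probe 4 (ILMN_1806951, NM_001033506) gave 393, 297 and 131 in parental cells, the last not detected, and 288, 326 and 282 in CSC-rich cells. It was at least 2.17-fold lower than scramble and at least 3.66-fold lower than untreated cells on the parental PNAs-A15 array.

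PABPN1, which coats the growing poly(A) tail in the nucleus and is known to hold back weak upstream poly(A) sites, had the largest difference among the member probes that stayed detected. Its signals were 4785, 6102 and 176 in parental cells, in the order untreated, scramble, PNAs-A15, and 4512, 3651 and 4829.9 in CSC-rich cells. It was 42.4-fold lower with PNAs-A15 than with scramble in parental cells and 34.8-fold lower than untreated, still detected at a detection p of 0.0091. The log2 difference from scramble was -5.41 after quantile normalization, -6.02 with median scaling and -5.11 unnormalized, and it rests on a signal near the detection limit. In CSC-rich cells the PNAs-A15 array was the highest of the 3, 0.35 above scramble and 0.15 above untreated cells on the log2 scale.

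**Figure D2:**
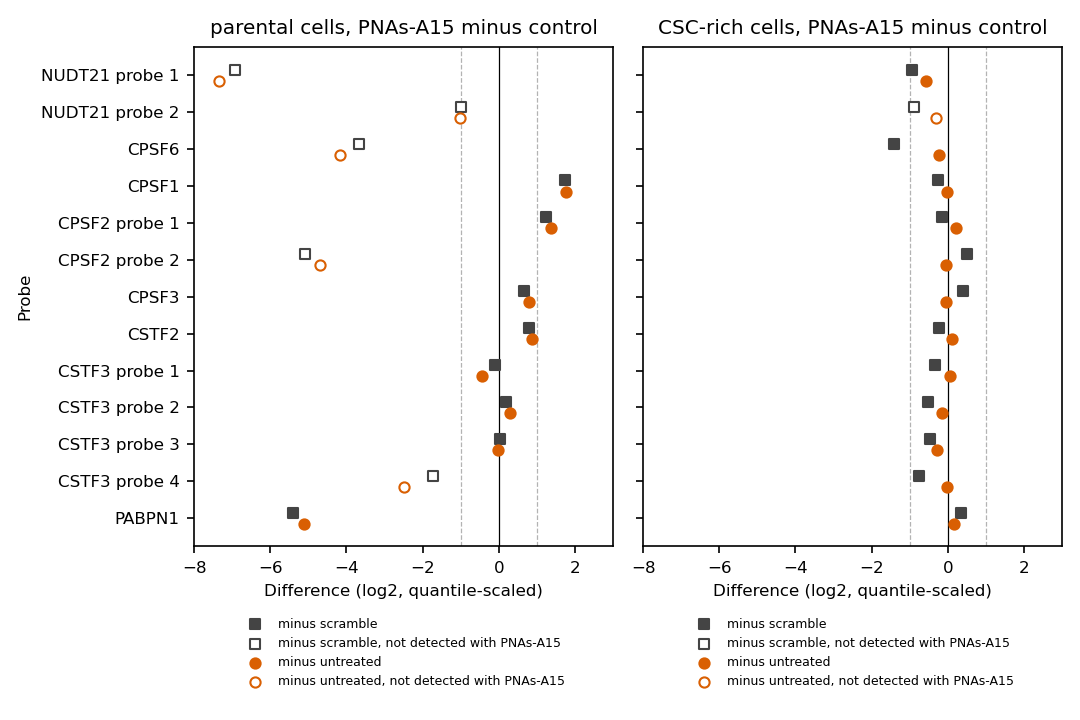
Log2 difference of each of the 13 member probes between the PNAs-A15 array and the scramble or untreated array of the same population, 1 array on each side, with probes not detected with PNAs-A15 drawn as open points. In parental cells the values run from -7.34 to 1.75, and in CSC-rich cells from -1.41 to 0.51.

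Over the 13 kept probes, PNAs-A15 against scramble in parental cells left 2 at least 2-fold higher and 5 at least 2-fold lower; over all 21526 kept probes, 19.3% were that much higher and 19.6% lower. The median was -0.09 for the members and 0.11 for all probes. Against untreated cells the counts were 2 higher and 6 lower, with 18.8% and 19.3% of all probes. Since the members were chosen on this array, nothing is read from these counts. The split over all probes also rested on the scaling, with 4144 higher and 4227 lower after quantile normalization, 1261 and 6432 with median scaling, and 310 and 5821 unnormalized, whereas for the members it was 1 and 6 with median scaling and 1 and 5 unnormalized. In CSC-rich cells with PNAs-A15 against scramble, 0 members were at least 2-fold higher and 1, CPSF6, was lower, where 8.11% and 2.95% of all probes were. Against untreated CSC-rich cells 0 of 13 passed 2-fold either way, where 0.297% and 0.218% of all probes did, and the members ran from -0.56 to 0.21. In the added 5-array limma model, 0 of 13 members passed against either control, and 0 had an unadjusted p under 0.05. Over all 20591 probes 0% passed each way, with 357 and 891 at an unadjusted p under 0.05 against untreated and scramble. The lowest adjusted p of a member was 0.977, and CPSF6 stood at -0.99 ± 0.52 against scramble (95% interval -2.10 to 0.12). Scramble against untreated left 0 members past 2-fold in parental cells (0.808% of probes higher and 0.153% lower) and 1, CPSF6, higher in CSC-rich cells (0.878% higher and 4.29% lower).

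**Figure D3:**
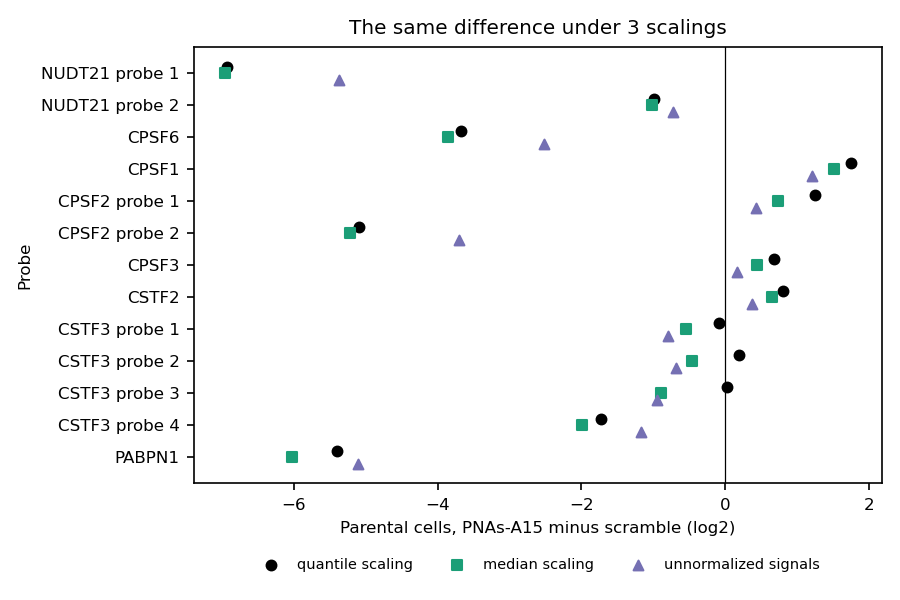
Log2 difference between PNAs-A15 and scramble in parental cells for each of the 13 member probes under 3 scalings between arrays: quantile normalization, median scaling and unnormalized signals. NUDT21 probe 1, CPSF6, CPSF2 probe 2 and PABPN1 lie below -2 under each of them, while CPSF2 probe 1 falls from 1.24 to 0.43 and the CSTF3 probes 1 to 3 move from near 0 to between -0.68 and -0.95.

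How unusual it was for a bright probe to fall to background on the parental PNAs-A15 array depended on its brightness. Among probes whose dimmer parental control signal was 200 to 500, 24.8% of 5540 were not detected there; CSTF3 probe 4 was the 1 member in that range. The share was 9.03% of 2912 at 500 to 1000, the range of CPSF6, and 3.63% of 2425 at 1000 to 2000, the range of CPSF2 probe 2. At 2000 to 5000, the range of NUDT21 probe 1, it was 1.62% of 2339, or 38 probes. Above 5000 it was 0.144% of 2086, or 3 probes. Among all 15302 probes at 200 or more, 1767 (11.5%) were not detected, and among the members 4 of 12. Since probes of NUDT21, CPSF6 and CPSF2 were picked for being low on this array, nothing is read from the members' count. On the CSC-rich PNAs-A15 array the shares were 3.48%, 0.378% and 0.0825% in the 3 lower ranges and 0% in the 2 upper ones. Many other bright probes were also not detected on the parental PNAs-A15 array. The share of that wider loss in the low values of NUDT21, CPSF6 and CPSF2 was not tested.

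**Figure D4:**
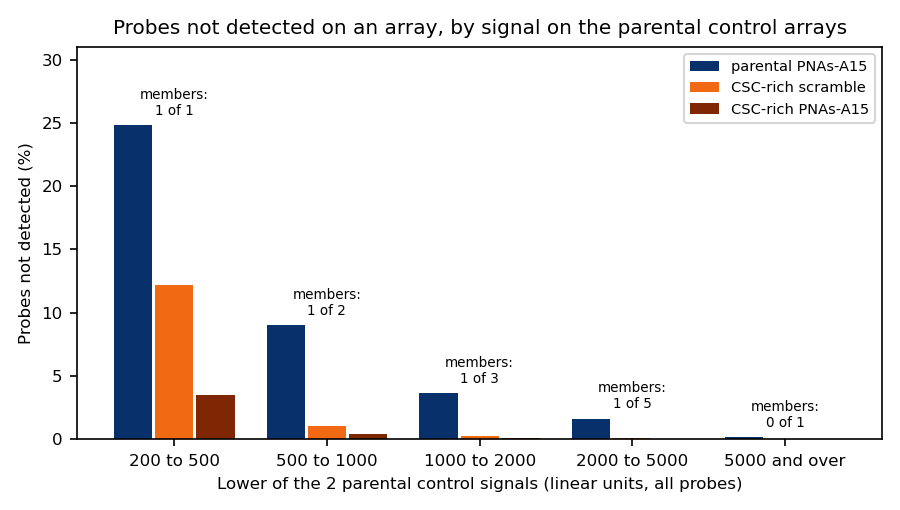
Percent of probes not detected on each of 3 arrays, by the dimmer of their signals in untreated and scramble-treated parental cells. The parental PNAs-A15 array lies above the others in every range, from 24.8% at 200 to 500 to 0.144% above 5000.

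By distance over the 6 normalized log2 values, the 5 named probes most like NUDT21 probe 1 among 16022 were those of CLINT1, TMED2, CNOT7, HNRNPH1 and FUBP3, at 0.54, 0.60, 0.61, 0.67 and 0.68. CLINT1 acts in vesicle transport, TMED2 in cargo sorting of the early secretory pathway, CNOT7 is a deadenylase of the CCR4-NOT complex, and HNRNPH1 and FUBP3 are nucleic acid-binding proteins. CLINT1 read 8743 with scramble and 138, not detected, with PNAs-A15 in parental cells, and 8598 untreated and 7556 with PNAs-A15 in CSC-rich cells. Of the other members, PABPN1 ranked 63 at a distance of 2.02, CPSF2 probe 2 ranked 125 and CPSF6 ranked 460 at 3.62. CSTF3 probe 4 ranked 1104, NUDT21 probe 2 ranked 2977 and CSTF3 probes 1 to 3 ranked 5197, 9166 and 8433. CPSF3 ranked 12393, CPSF2 probe 1 ranked 13863, CSTF2 ranked 14434 and CPSF1 ranked 15325. The distance includes the parental PNAs-A15 value on which NUDT21 was chosen, and levels there that were not above background for NUDT21 probe 1, CLINT1, CNOT7 and FUBP3, so the ranks are a description only.

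The main comparison of CSC-rich with parental cells did not use any PNAs-A15 array and could be tested. In limma's additive model of population and treatment over the 4 untreated and scramble arrays, 0 of 13 member probes passed an adjusted p under 0.05 (Benjamini-Hochberg over 20591 probes) and 1 had an unadjusted p under 0.05. Over all probes 7.36% passed as higher and 8.93% as lower in CSC-rich cells. Of the members 5 lay above and 8 below 0, with a median of -0.10 against 0.05 for all probes. The model had 1 residual degree of freedom, and its spread came mainly from a prior of 13.9 degrees shared over probes.

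CSTF2 had the lowest p of the members. Its mean log2 level was 11.39 in CSC-rich and 12.22 in parental cells, a difference of -0.84 ± 0.33 (SE, 2 arrays a population, 95% interval -1.54 to -0.13), or 1.78-fold lower, with a limma p of 0.0231 and an adjusted p of 0.0995. It was lower in both pairs, by -0.97 between the untreated and -0.70 between the scramble arrays. The adjusted p was 0.046 in limma with the treatment term dropped, where 3841 of all 20591 probes passed. It was 0.0086 in limma on the untreated arrays, the parental scramble array and the CSC-rich PNAs-A15 array. There 5189 of all probes passed, and this alternative was added after the data were seen. That array set mixes population with PNAs-A15 treatment.

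CPSF6 was next, at -0.71 ± 0.39 (95% interval -1.55 to 0.13, adjusted p 0.246 by limma). Its pairs disagreed: the CSC-rich value was lower by 1.55 among the untreated arrays (log2 -1.55) and 0.12 higher among the scramble arrays. In the fit that left out the CSC-rich scramble and parental PNAs-A15 arrays, the difference was -1.41 with an adjusted p of 0.0064 by limma. That fit was added after the data were seen and lacks the scramble array on which the pairs disagreed. It passed 5189 of all 20591 probes, where the main model passed 3355. The CSC-rich side of that fit held the untreated and the PNAs-A15 array, so population and PNAs-A15 treatment are mixed in it. NUDT21 probe 1 differed by 0.17 ± 0.34 (95% interval -0.57 to 0.90). The intervals of CPSF1 (-0.79 to 0.62), CPSF2 probe 1 (-0.56 to 0.84), CPSF2 probe 2 (-1.16 to 0.34), CPSF3 (-0.99 to 0.44) and PABPN1 (-0.92 to 0.51) also held 0. Those of the 4 CSTF3 probes did so too.

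**Figure D5:**
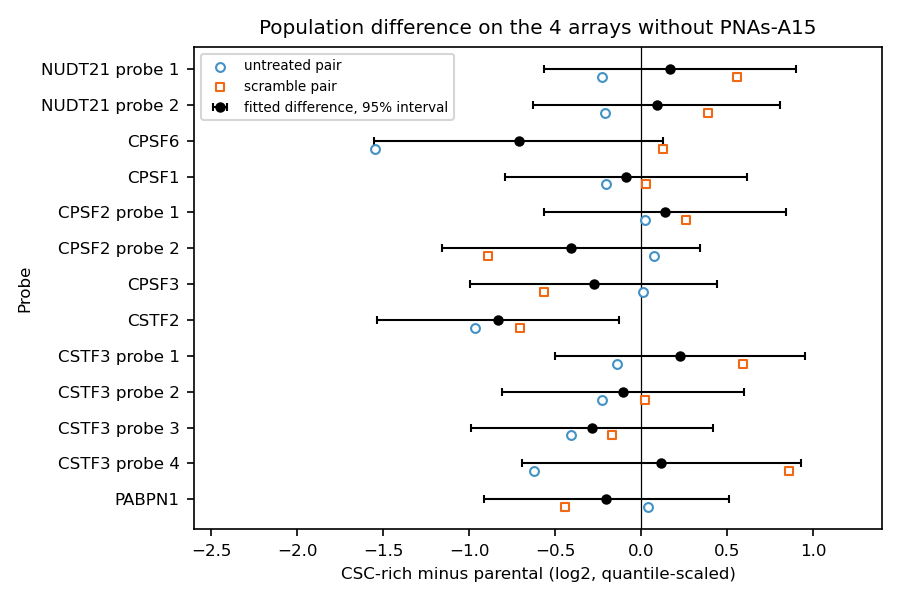
Log2 difference of CSC-rich minus parental cells for the 13 member probes, with bars for the 95% interval of limma's model over 4 arrays and small points for the untreated and the scramble pair. CSTF2 at -0.84 is the 1 probe whose interval (-1.54 to -0.13) does not reach 0, and its adjusted p was 0.0995.

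Scramble against untreated, from the same limma model, gave 0 member probes at an adjusted p under 0.05 and 0 at an unadjusted p under 0.05. The members' differences lay between -0.16 and 0.34, with SEs of 0.33 to 0.39. Over all 20591 probes, 0 passed (0% in each direction) and 93 had an unadjusted p under 0.05.

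The wider machinery was read from lists of related genes. These lists were chosen with earlier results of these data known, so their counts on the parental PNAs-A15 array are a description only. Other core cleavage and polyadenylation factors were measured by 23 probes of 14 genes. On the parental PNAs-A15 array 1 of these was at least 2-fold higher than scramble and 11 lower, where 19.3% of all probes were higher and 19.6% lower. The median was -0.90 after quantile normalization, -1.30 with median scaling and -1.05 unnormalized, where that of all probes was 0.11, -0.34 and -0.44. PCF11, which links cleavage to transcription termination, gave 1375, 1281 and 333 in parental cells, a log2 difference of -1.17 from scramble (-2.06 with median scaling and -1.95 unnormalized). XRN2, the exonuclease that degrades the RNA left behind the cut, gave 1308, 1826 and 326, or -1.80 (-2.65 and -2.49). The poly(A) polymerase PAPOLG was the 1 higher probe by quantile normalization, but its signals of 183, 163 and 194 lay near background, the second not detected, and its log2 difference from scramble was 1.75, 1.08 with median scaling and 0.25 unnormalized. In CSC-rich cells 4 of the 23 were at least 2-fold higher and 3 lower with PNAs-A15 than with scramble, where 8.11% and 2.95% of all probes were. Against untreated CSC-rich cells 0 were either, where 0.297% and 0.218% of all probes were.

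Genes that bind or trim the tail (18 probes of 13 genes) showed 2 higher and 5 lower on the parental PNAs-A15 array, near the shares of all probes given above. CNOT7 had a probe (ILMN_1715886) at 4184, 3322 and 109.9 in parental cells, the last not detected and at least 41.1-fold below scramble, and another (ILMN_1656134) at 3096, 3696 and 826, or -1.46 (-2.16 unnormalized). PABPC1, the main cytoplasmic poly(A) binding protein, gave 28731, 32752 and 8389.9 from its probe ILMN_1761155, a log2 difference of -1.68, and 6069, 5858 and 4035 from its probe ILMN_2136133, or -0.06 (-0.54 unnormalized). PAN2, the catalytic subunit of a deadenylase, gave 917, 917 and 1451, a log2 difference from scramble of 1.61 after quantile normalization and 0.66 unnormalized. Against untreated CSC-rich cells 0 of the 18 passed 2-fold, where 0.297% of all probes were higher and 0.218% lower.

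Factors of histone and snRNA 3′ ends (13 probes of 9 genes) showed 2 higher and 2 lower, also near the shares of all probes. SLBP, which binds the stem-loop at the end of histone mRNAs, again had probes that parted: ILMN_1753353 gave 3842, 4095 and 203 in parental cells, a log2 difference of -4.23 from scramble, and ILMN_2055700 gave 3389, 3500.0 and 1749, a difference of -0.33 (-0.77 with median scaling). Among 4 genes whose poly(A) site choice is known to depend on NUDT21 (CCND1, DICER1, TIMP2 and VMA21, 6 probes), 0 were at least 2-fold higher and 2 lower than scramble on the parental PNAs-A15 array. Of all probes 19.3% were that much higher and 19.6% lower. DICER1, the nuclease that makes mature miRNAs, gave 1981, 1680.1 and 226 from its probe ILMN_1772692, or -2.49, and 763, 621 and 388 from its probe ILMN_2349831, or 0.37, which turned to -0.55 with median scaling and -0.68 unnormalized. As with CPSF2, probes of 1 gene gave different values.

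Of the 65 probes of the related lists, 10 (15.4%) passed limma's test between populations, adjusted over all 20591 probes, of which 16.3% passed, so the lists as a whole passed about as often as any probe. The genes below are given for their own values. U1 snRNP, the particle that also guards nascent transcripts against early cleavage, fell in 3 of its 6 probes and rose in 0, with a median of -1.34. SNRPA gave signals of 2572 and 3655 in untreated and scramble-treated parental cells and 844 and 398 in CSC-rich cells, a log2 difference of -2.43 ± 0.38 (adjusted p 0.00070). SNRPC fell by 1.85 (ILMN_1741997, adjusted p 0.0055) and SNRNP70 by 1.68 (ILMN_2380839, adjusted p 0.012), while brighter probes of each (SNRPC ILMN_2086064 at -0.99 and SNRNP70 ILMN_1732053 at -0.16) did not pass. Over all probes 8.93% fell. On the CSC-rich scramble array, where fewer probes were detected, these signals were the lowest of the 6: 398 for SNRPA, 196 for that SNRPC probe and 213 for that SNRNP70 probe. With PNAs-A15 against scramble in CSC-rich cells 3 of the 6 U1 probes were at least 2-fold higher, where 8.11% of all probes were. Against untreated cells 0 were, where 0.297% of all probes were.

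Among the other core factors 3 of 23 probes rose and 3 fell, where 7.36% of all probes rose and 8.93% fell, so the count is near that of all probes. WDR33 is the CPSF subunit that reads the AAUAAA signal with CPSF4. Of its probes, ILMN_1670172 was higher in CSC-rich cells by 1.15 ± 0.35 (adjusted p 0.037 by limma) and ILMN_1745852 by 1.52 ± 0.36 (adjusted p 0.010). The first of these probes gave 2744 and 2203 in untreated and scramble-treated parental and 3948 and 4972 in CSC-rich cells. The other tested WDR33 probes did not pass and went both ways. They stood at 0.98 (ILMN_2383913), 0.77 (ILMN_1716086), -0.10 (ILMN_1676789) and -0.74 (ILMN_2272867). RBBP6, a ubiquitin ligase of the cleavage complex, had a probe (ILMN_1665135) at 191 and 165 in parental and 280.1 and 323 in CSC-rich cells, the second not detected. Its fitted difference was 1.66 ± 0.38 (adjusted p 0.0081 by limma), and 0.76 unnormalized, with an adjusted p of 0.13. A brighter RBBP6 probe (ILMN_2309446) differed by 0.09 and did not pass (adjusted p 0.90). SYMPK, the scaffold shared by polyadenylation and histone processing, gave 279 and 442 in parental and 259 and 126 in CSC-rich cells, the last not detected, and a fitted difference of -1.49 (adjusted p 0.045) that rests on that array. The PPP1CA probes, for the phosphatase subunit of the complex, fell by 1.98 (ILMN_1695827, adjusted p 0.0082) and 1.53 (ILMN_2377980, adjusted p 0.014), the second not detected on the CSC-rich scramble array. Of the tail genes PAN3, the partner of PAN2, was the 1 of 18 that passed, at 1.09 ± 0.35 (adjusted p 0.046). None of the 13 histone and snRNA probes and none of the 5 probes tested of the NUDT21-dependent genes passed. Without the CSC-rich scramble and parental PNAs-A15 arrays, but with the CSC-rich PNAs-A15 array, 7 of the 10 probes passed. All 10 had the same sign, and of all 20591 probes 5189 passed. The 10 were chosen for passing the main fit, and this set shares its other arrays with that fit. These counts are therefore no separate support. That array set mixes population with PNAs-A15 treatment. The probes that did not pass were SYMPK, SNRNP70 and PPP1CA ILMN_1695827, with adjusted p of 0.17, 0.083 and 0.092 by limma. The differences shrank to -0.56 for SYMPK, -0.91 for SNRNP70, -0.89 and -0.74 for the PPP1CA probes and -1.18 for SNRPC, and SNRPA was at -1.93. With median scaling or unnormalized signals 1 of the 10 passed, with the same sign in all 10. Of all 20591 probes, 992 and 768 passed there. On 5 arrays without the CSC-rich scramble array but with the parental PNAs-A15 array 0 passed, and 8 of 10 had the same sign. Of all probes 65 passed there.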

How the data were processed

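Total RNA (0.55 ug) was made into biotin-labelled cRNA for the BeadChips, per the labels' protocols. The deposited table gives a linear signal intensity per probe and array, not normalized between arrays, and a detection p-value from its negative controls. GenomeStudio 2011.1 is named in the submitters' processing notes; other steps by the authors: not given in the sources used here. Values in the deposited series matrix equalled the table in 100% of cells.

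Signals were corrected by limma's neqc (limma 3.58.1, R 4.3.3; normal-exponential model from detection p-values, offset 16), quantile-normalized over the 6 arrays and put on the log2 scale from the deposited signals. Probes detected (p under 0.05) on at least 2 of 6 arrays were described, and those detected on at least 2 of the 4 untreated and scramble arrays were tested, with population and treatment as terms. The test assumes that scramble acts alike in both populations, and no label ties the arrays to separate cultures, so p-values reflect the spread between these arrays, which may be technical. Symbols came from a platform table: 30113 probes had 1 gene, 8 had several and 17202 were unlisted and stay unnamed; identifiers of 30074 matched RefSeq (GRCh38.p14). The promoter of CPSF1 is not shown here.

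All member probes are named. Of the related lists, genes were named from those that passed a test or were at least 2-fold apart between PNAs-A15 and both controls, and a few examples of these are given. The members and lists were chosen with earlier results of these data known. Alternatives were median scaling, unnormalized signals, an offset of 50, other filters on dim probes, other array sets and the untreated control, plus 1 array set and 1 test of PNAs-A15 in CSC-rich cells added after the data were seen. The population fit over 4 arrays was tested on simulated data. It recovered 26 of 100 simulated log2 differences of 1 and 100 of 100 of 2. Only these probes were changed among 20591, whereas 3355 passed in the data. The adjustment was therefore stricter in the simulation. How often 2-fold differences between populations were missed in the data cannot be taken from it.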

Additional observations from a re-analysis of the deposited data

Results flagged for a closer look

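PABPN1 and CPSF1 differed in sign between the populations with PNAs-A15. PABPN1 differed from scramble by -5.41 on the log2 scale in parental cells and by 0.35 in CSC-rich cells, and from untreated cells by -5.12 and 0.15. CPSF1 differed from scramble by 1.75 in parental and by -0.26 in CSC-rich cells, and from untreated cells by 1.75 and -0.02. The CSC-rich values were small: 35.7% of all probes lay as low as CPSF1 against scramble and 47.8% against untreated cells. The difference between populations was not tested, and the parental values come from the array that chose the members and stands apart from the rest.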

How the results depend on the processing

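No paired analysis was possible because the labels carry no replicate numbers to pair arrays by; the population test compares arrays of like treatment through its treatment term. The test between populations passed 3355 probes, and 3166 when detection on all 4 arrays was asked, 3581 with an offset of 50 and 3841 without the treatment term. The planned set of 5 arrays without the parental PNAs-A15 array returns the same values by construction and checks nothing. It passed 992 with median scaling, 768 on unnormalized signals, 151 with all 6 arrays, 65 on 5 arrays without the CSC-rich scramble array and 0 by limma without a filter on dim probes, where 7683 of 47323 had an unadjusted p under 0.05. The array set added after the data were seen, without both arrays that stand apart, gave 5189. Its CSC-rich side held the PNAs-A15 array, so population and PNAs-A15 treatment are mixed there. Of the members, 0 passed under these alternatives except CSTF2 without the treatment term, and CSTF2 and CPSF6 in the added set. Scramble against untreated passed 0 probes in limma under every alternative run, with 3 to 595 at an unadjusted p under 0.05. The added test of PNAs-A15 in CSC-rich cells passed 0 against either control with median scaling (157 and 293 unadjusted) and unnormalized (40 and 142). The count of members at least 2-fold lower with PNAs-A15 than with scramble in CSC-rich cells went from 1 to 0 on unnormalized signals and to 0 with the untreated array as control. The count of members higher with scramble than untreated in CSC-rich cells went from 1 to 0 with median scaling and to 0 unnormalized. At a detection p under 0.01 the members detected were 12, 12 and 8 in parental and 12, 13 and 12 in CSC-rich cells. With 1 array a group, signal near background limits NUDT21 probe 2, CPSF7 and CSTF1 most. Apart from these counts, the cause of each shift was not tested.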
